A study of Mus musculus with 5 samples.

Results

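A set of 7 genes for RNA-binding proteins known from lens fibre differentiation were examined in embryonic mouse lenses with and without N-myc: Caprin2, Tdrd7, Celf1, Stau1, Stau2, Rbm24 and Carhsp1. They and the gene lists used below were chosen by name, with earlier results of these data known. All 7 genes were present among the 12370 gene symbols of the count table. They were also among the 12035 symbols that passed the filter on low counts. RNA sequencing covered lenses of embryonic day 14 in 3 control and 2 knockout libraries, each a pool of lysates from single animals. Pool sizes are not stated. Knockout embryos carried loxP-flanked N-myc on both alleles and 1 copy of Mlr10-Cre, a transgene that brings the Cre recombinase into the lens. Control embryos lacked Cre and carried the same loxP-flanked N-myc alleles. The labels describe a second control genotype that also had loxP-flanked c-myc, without saying which library had it, and do not name the promoter of the transgene. Since Cre was in both knockout libraries and in none of the controls, effects of Cre cannot be told apart from effects of the deletion.

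A lens fibre cell stops dividing, elongates, fills with crystallins and then destroys its nucleus and other organelles. Much of its later protein supply must come from messenger RNAs made before transcription ends, so the storage, transport, translation and decay of mRNA carry weight in this cell. RNA granules are cytoplasmic assemblies of RNA and protein that take part in storage, transport and decay. P-bodies hold repressed and decaying mRNA, stress granules hold stalled initiation complexes, and transport granules move mRNA along microtubules. Caprin2 and Tdrd7 are granule proteins that accumulate in fibre cells, and loss of Tdrd7 causes cataract. Celf1 and Rbm24 bind defined sequence elements and set the splicing, stability or translation of their targets. Stau1 and Stau2 bind double-stranded RNA stems and act in mRNA transport and in Staufen-mediated decay, and Carhsp1 carries a cold shock domain, a fold that binds single-stranded RNA.

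Of the 7 genes, 2, Caprin2 and Tdrd7, were lower in the knockout lenses, and none was higher (edgeR quasi-likelihood test, adjusted p under 0.05 over all tested genes). Among all tested genes 8.51% were called lower, 7.98% higher and 16.5% in either direction, or 1024 lower and 960 higher. With library totals as the sole scaling, which moves the median of all genes to 0.09, these were 637 lower and 1511 higher, and with length and GC trends taken out 895 and 344. The CPM ranges of the 2 groups (read counts relative to library size, scaled between libraries by TMM) did not overlap for 4 of the 7 genes, against 52.5% of all tested genes, so that count lies near the background. The 7 genes had a median log2 fold change of -0.21, against 0.00207 over all tested genes. Of all raw counts they took 0.512%, 0.533% and 0.577% in the 3 control libraries, in the order of their numbers, against 0.397% and 0.419% for knockouts 1 and 2. This share scales each library by its own total only, and it was lower in both knockout libraries than in every control library. Caprin2, Tdrd7 and Celf1 had the highest raw counts of the 7 genes and so weigh most in it.

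The promoters of the 2 genes that fell are shown because a change in mRNA level can begin there, although no binding was measured in this study. RefSeq windows of 300 bases (250 before to 50 after a transcription start, build GRCm38.p6) were found for 6 of the 7 genes, in 9 windows, and Stau2 had no entry. The Caprin2 window lies at chr6:148896188-148896487 on the minus strand. The Tdrd7 window shown lies at chr4:45972047-45972346 on the plus strand, at the start of its longest coding transcript, and 2 further Tdrd7 windows are not printed. Capitals mark CCGGAA, the core bound by many ETS factors, in Caprin2, and TGCTGA, a half-site of the MAF recognition element, in Tdrd7.
Caprin2: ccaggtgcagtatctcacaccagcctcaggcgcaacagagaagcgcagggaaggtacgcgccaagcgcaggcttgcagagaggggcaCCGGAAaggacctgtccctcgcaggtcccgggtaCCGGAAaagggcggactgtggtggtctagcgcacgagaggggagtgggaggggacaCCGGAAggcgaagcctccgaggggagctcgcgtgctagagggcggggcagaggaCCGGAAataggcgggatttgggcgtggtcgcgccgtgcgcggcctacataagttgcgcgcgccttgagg
Tdrd7: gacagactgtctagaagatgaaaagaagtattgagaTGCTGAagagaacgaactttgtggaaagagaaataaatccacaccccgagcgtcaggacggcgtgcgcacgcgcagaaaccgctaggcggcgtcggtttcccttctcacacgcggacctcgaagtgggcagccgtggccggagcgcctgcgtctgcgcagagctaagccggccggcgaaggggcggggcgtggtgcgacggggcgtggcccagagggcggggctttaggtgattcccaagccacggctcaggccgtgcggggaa

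The Caprin2 window held 4 copies of CCGGAA, counted on both strands, at 163, 129, 73 and 19 bases before the transcription start. Of the 32851 windows in the RefSeq table, 14.9% held CCGGAA at least once and 67 (0.204%) held it 4 times or more. Counted by gene, 32.2% of the 9319 tested genes with a window held it at least once. This motif was picked after the Caprin2 sequence had been read, and none of the other 8 windows contained it. The E-box CACGTG, the palindrome bound by MYC and MAX dimers, was in 0 of the 9 windows, and 1121 of the 9319 tested genes with a window held it. TGCTGA or its reverse complement was in 1 of the 9 windows, 214 bases before the start in the Tdrd7 window printed, and in 17.6% of the tested genes with a window. A match describes letters only, and its absence covers these 300 bases only.

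Caprin2 (chromosome 6, 148842492 to 148896237, minus strand, GENCODE vM21 on GRCm38) showed the largest difference of the 7 genes. It had 16782, 21473 and 23311 raw counts in the controls, always listed in the order of their replicate numbers, against 9321 and 10167 for the knockouts. On the CPM scale these were 1316, 1630 and 1769 against 667.1 and 729.3. Both knockout libraries lay far below the lowest control, and the 2 knockout libraries lay closer to each other than the controls did. The mean went from 1571 ± 232 CPM (SD, n = 3) to 698.2 ± 44.0 CPM (SD, n = 2), which is 2.25-fold lower (log2 fold change -1.17, SE 0.14, edgeR adjusted p = 0.0073). Only 0.557% of the tested genes had a fold change further below 0. Over 15 alternative analyses the log2 fold change of Caprin2 lay between -1.28 and -1.06, and it passed the test in 14. The exception was the fit without control replicate 2 (log2 fold change -1.13, edgeR adjusted p = 0.052), in which 38 of all genes were called.

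Tdrd7 (chromosome 4, 45965334 to 46034761, plus strand), whose Tudor domains bind methylated arginine in partner proteins, had control counts of 17260, 19145 and 19395 against knockout counts of 13318 and 14641. In CPM the controls stood at 1353, 1453 and 1472, and the knockouts at 953.1 and 1050. The groups did not overlap, and the 3 controls were within a narrow band. The fall was 1.42-fold, from 1426 ± 63.9 CPM (SD, n = 3) to 1002 ± 68.7 CPM (SD, n = 2), or -0.51 on the log2 scale (SE 0.096, edgeR adjusted p = 0.019). A larger fall was found for 7.42% of the tested genes. Tdrd7 passed in 12 of its 15 alternatives. Leaving out control replicate 2 (edgeR adjusted p = 0.082), control replicate 3 (0.068) or knockout replicate 1 (0.12) ended the call, at log2 fold changes of -0.48, -0.48 and -0.44. After correction for transcript length and GC content the log2 fold change was -0.58 for Tdrd7 (edgeR adjusted p = 0.014) and -1.12 for Caprin2 (0.0042).

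Rbm24 (chromosome 13, 46418434 to 46431095, plus strand), which stabilises Sox2 mRNA in the early eye and directs splicing in muscle, stood at 439.0, 443.8 and 441.8 CPM in the controls against 342.7 and 395.5 CPM in the knockouts. The controls were nearly identical, with a coefficient of variation of 0.544%, and both knockouts lay below them. The log2 fold change was -0.26 (SE 0.092, edgeR adjusted p = 0.086) and did not pass the test. DESeq2 alone among the 15 alternatives called it (adjusted p = 0.024). Rbm24 is also a muscle gene, and skeletal muscle markers were uneven across the libraries. The 11 muscle markers in the table, of 12 listed, summed to 65.3 to 296.6 CPM in the controls, to 2251 CPM in knockout replicate 1 and to 92.8 CPM in knockout replicate 2, and none was at 0 in all libraries. Rbm24 was lowest in the library with the most muscle marker RNA, and the part of muscle cells in its level was not tested.

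Celf1 (chromosome 2, 90940382 to 91019497, plus strand), whose loss in the lens causes cataract in mice, was at 1699, 1526 and 1640 CPM in the controls against 1322 and 1485 CPM in the knockouts. Knockout replicate 2 came close to control replicate 2, and the groups did not overlap. At a log2 fold change of -0.21 with SE 0.10 (edgeR adjusted p = 0.17) it did not pass, nor did it in any of the 15 alternatives, where the value ran from -0.33 to -0.12. Its raw counts, 20106 to 21675 in the controls against 18475 and 20706, were among the highest of the 7 genes.

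The Staufen genes and Carhsp1 had overlapping groups. Stau1 (chromosome 2, 166947549 to 166996299, minus strand), the more widely expressed of the 2 Staufen genes, was at 86.3, 83.1 and 80.3 CPM in the controls against 90.0 and 81.0 CPM in the knockouts. Its log2 fold change was 0.04 (SE 0.084, edgeR adjusted p = 0.77). Stau2 (chromosome 1, 16228674 to 16520112, minus strand), known for mRNA transport in neurons, was at 28.9, 33.5 and 36.2 CPM in the controls against 31.2 and 36.8 CPM in the knockouts. The log2 fold change was 0.05 (SE 0.13, edgeR adjusted p = 0.81), with the widest error of the uncalled members and raw counts of 369 to 513. Carhsp1 (chromosome 16, 8658580 to 8672155, minus strand) was at 359.8, 354.9 and 344.8 CPM in the controls against 346.5 and 356.0 CPM in the knockouts, which lay inside the control range. Its log2 fold change was -0.01 (SE 0.079, edgeR adjusted p = 0.95). The sign of this value was not stable: scaling by library totals alone gave 0.08. The antisense genes Gm28095 and Gm7568 overlap Stau2, and Pmm2 overlaps Carhsp1 by 3888 bases on the opposite strand, in each case with 0 exonic bases shared in GENCODE vM21. The strand setting of the counting is not stated.

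**Figure D1:**
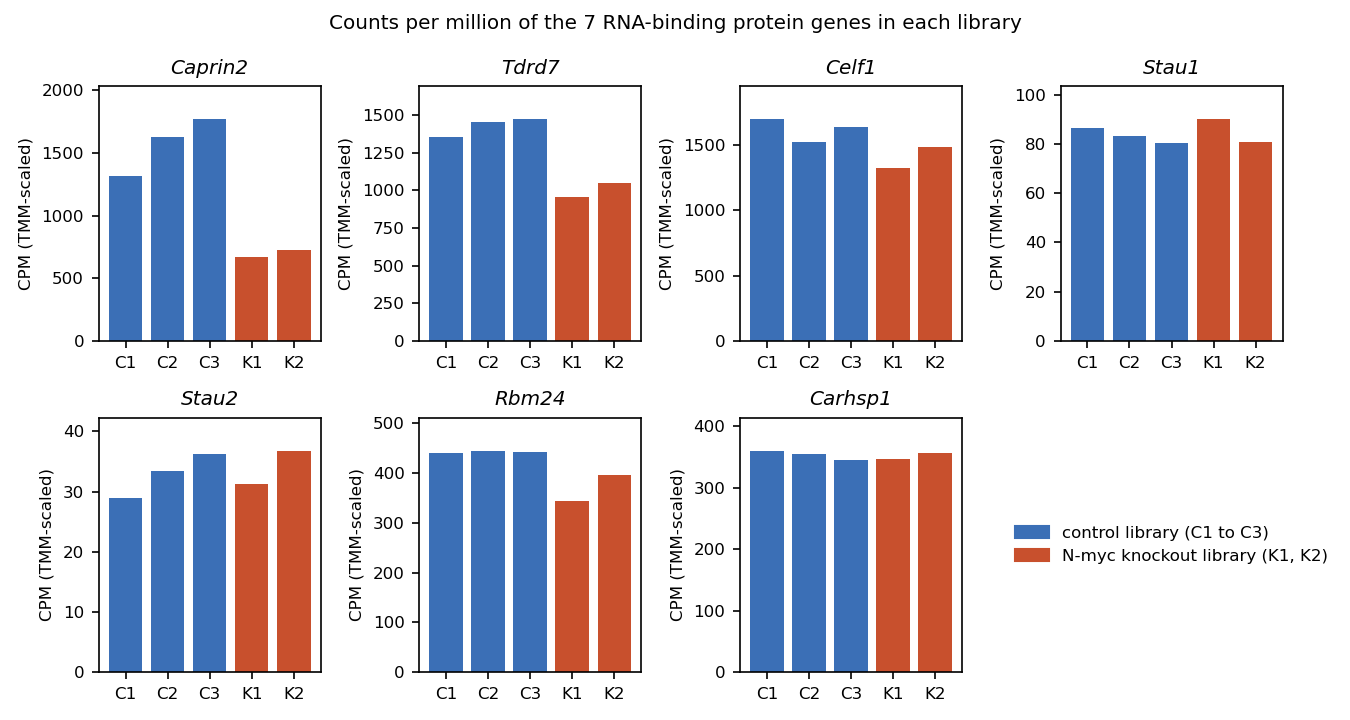
CPM (TMM-scaled, y axes from 0) of the 7 genes in control libraries C1 to C3 (blue) and N-myc knockout libraries K1 and K2 (red), 1 bar per library. Caprin2 and Tdrd7 fell in both knockout libraries, while Stau1, Stau2 and Carhsp1 overlapped between the groups.

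Levels were compared between genes as CPM per kilobase of the longest protein-coding transcript in GENCODE vM21. In the controls Caprin2 was highest at 425.1 ± 62.9 (SD, n = 3), followed by Tdrd7 at 383.7 ± 17.2 and Celf1 at 206.6 ± 11.2. Rbm24 (143.1 ± 0.779), Carhsp1 (123.6 ± 2.68), Stau1 (23.3 ± 0.842) and Stau2 (8.41 ± 0.941) came next. Over all tested genes with a known length the median was 8.11 CPM per kilobase, so 6 of the 7 genes lay well above a typical lens gene and Stau2 lay near it. Neighbours in this order did not overlap in the controls, except that Caprin2 (355.8 to 478.6) and Tdrd7 (364.1 to 396.1) could not be separated. In the knockouts the order of the means changed in 2 places. Tdrd7, at 256.5 and 282.6 CPM per kilobase, was above Caprin2, at 180.4 and 197.3, and Caprin2 overlapped with Celf1, at 168.4 and 189.2. Carhsp1, at 121.2 and 124.5, had a higher mean than Rbm24, at 111.1 and 128.2, with overlapping values. Transcript choice affects these levels, since the count table does not separate isoforms.

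Ratios of raw counts within a library are free of the scaling between libraries. Caprin2 had 0.972, 1.12 and 1.20 counts per Tdrd7 count in the controls against 0.700 and 0.694 in the knockouts. The ratio of Caprin2 to Celf1 was 0.774, 1.07 and 1.08 in the controls against 0.505 and 0.491, and that of Tdrd7 to Celf1 was 0.796, 0.952 and 0.897 against 0.721 and 0.707. In all 3 ratios both knockout libraries lay below every control. The ratio of Stau1 to Stau2 was 2.56 ± 0.389 in the controls (SD, n = 3) and 2.54 ± 0.484 in the knockouts (SD, n = 2), with overlapping groups. A total of 8 such ratios were tested. The exact two-sided permutation test gave p = 0.2 for the 3 ratios among Caprin2, Tdrd7 and Celf1, which is the smallest value that 3 against 2 libraries allow (Benjamini-Hochberg adjusted p = 0.27), and 0.8 for Stau1 to Stau2. This test therefore cannot place the ratio differences past a threshold with so few libraries.

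The profiles of the 7 genes over the 5 libraries were compared by the Euclidean distance of log2(CPM + 1) less each gene's mean. Among the 7, Celf1 and Rbm24 were closest (0.138), followed by Stau1 and Carhsp1 (0.146), and Caprin2 and Stau1 were farthest apart (1.38). Tdrd7 was nearer to Rbm24 (0.288) than to Caprin2 (0.745). Of 10454 candidate genes with a mean of at least 5 CPM, Rnf113a1 (0.108) and the predicted gene Gm20757 (0.138) were nearest to Caprin2. Gsk3b and Pank3 were nearest to Celf1, Rsrc1 and Gtf2e1 to Rbm24, Dgcr14 and Strn to Stau1, Eif1ad and Lias to Stau2, and Chmp1a and Csnk1g1 to Carhsp1, all at distances from 0.0233 to 0.0628. With 5 libraries many genes share such a profile, and the distances describe these libraries only.

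Lens fibre markers were lower on average, as were Caprin2 and Tdrd7. Of 12 fibre markers, 6 were lower (50%, against 8.51% of all tested genes) and 0 higher. The log2 fold changes of the 12 markers had a median of -0.49, with 10 below 0 and 2 above it. Their mean log2(CPM + 1), less the control mean, was -0.27, 0.15 and 0.12 in the controls against -0.99 and -0.55 in the knockouts. On the same scale Caprin2 was at -0.25, 0.06 and 0.18 in the controls against -1.22 and -1.10 in the knockouts, and Tdrd7 at -0.07, 0.03, 0.05, -0.58 and -0.44 in the same order. Control replicate 1 was thus the lowest control for the fibre markers, for Caprin2 and for Tdrd7. The same held for Rbm24 and for Stau2, which was at -0.17, 0.03 and 0.14 in the controls against -0.07 and 0.16 in the knockouts. For Celf1, Stau1 and Carhsp1 control replicate 1 was the highest control. None of the fibre markers was at 0, and for the most abundant, Cryaa, named after its values were seen, the log2 fold change was 0.04 (SE 0.12, edgeR adjusted p = 0.82). In such pooled tissue, fewer fibre cells and less RNA per fibre cell cannot be told apart. The part of fibre content in the falls of Caprin2 and Tdrd7 was not tested. The number of fibre markers called lower was 0 when control replicate 2 was left out and 1 for control replicate 3. Of all genes, these fits called 17 and 105 lower, against 1024 with every library.

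**Figure D2:**
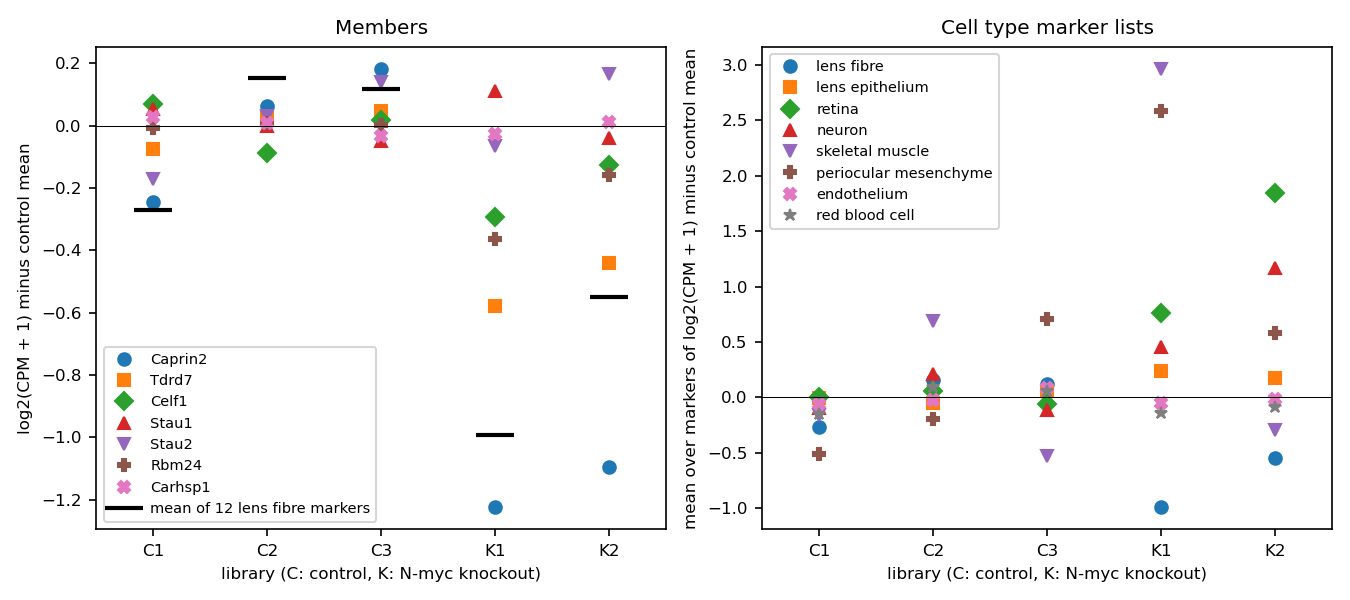
Left, log2(CPM + 1) of each of the 7 genes less its control mean, by library (C1 to C3 controls, K1 and K2 knockouts), with the mean of the 12 lens fibre markers as a black bar. Right, the mean of the same quantity over each cell type marker list. Caprin2 lies below the fibre bar in both knockout libraries, and muscle and mesenchyme markers are highest in K1 while retina and neuron markers are highest in K2.

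Markers of neighbouring tissues were also detected in each library, in unequal amounts. Whether this RNA came from neighbouring tissue or from lens cells was not tested. The 10 retina markers, all detected, summed to 323.2 to 475.7 CPM in the controls and to 508.3 and 670.4 CPM in knockout replicates 1 and 2. The 9 of 10 mesenchyme markers present among the gene symbols summed to 154.6 to 434.4 CPM in the controls and to 1925 and 333.9 CPM in the knockouts. The 7 of 8 neuron markers present among the gene symbols summed to 25.5 to 30.6 CPM in the controls and to 38.2 and 69.7 CPM in the knockouts. Mycn, the gene deleted, fell from 150.2 ± 11.0 CPM (SD, n = 3) to 69.6 ± 17.3 CPM (SD, n = 2), with both knockouts below every control. Library totals were 13162384 to 13746416 counts.

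The closest relatives of the 7 genes did not all move the same way. Caprin1, the widely expressed paralogue of Caprin2 and a partner of the stress granule nucleator G3bp1, was at 843.1, 833.3 and 835.2 CPM in the controls against 580.1 and 677.1 CPM in the knockouts, a 1.33-fold fall (log2 fold change -0.41, SE 0.098, edgeR adjusted p = 0.032). After the length and GC correction Caprin1 missed the threshold, at a log2 fold change of -0.31 (edgeR adjusted p = 0.080). Caprin2 counts per Caprin1 count went from 1.88 ± 0.287 in the controls (SD, n = 3) to 1.11 ± 0.0515 in the knockouts (SD, n = 2), without overlap (exact permutation p = 0.2, adjusted p = 0.27). Tdrkh, a Tudor domain protein of mitochondria and the piRNA pathway, fell 1.36-fold from 76.0 ± 2.75 to 55.8 ± 1.31 CPM (edgeR adjusted p = 0.016).

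Celf2, which shares the RNA-binding domains of Celf1, went the other way. It stood at 40.4, 38.5 and 35.5 CPM in the controls against 72.4 and 48.9 CPM in the knockouts, a 1.59-fold rise (log2 fold change 0.67, SE 0.16, edgeR adjusted p = 0.032). The higher of the 2 knockout values was in replicate 1, where mesenchyme and muscle markers were also highest, and without that library the log2 fold change of Celf2 was 0.36 (edgeR adjusted p = 0.17), short of the threshold. Per kilobase, Celf1 at 206.6 CPM in the controls still far exceeded Celf2 at 4.31 CPM. Csdc2, the cold shock domain protein closest to Carhsp1, rose 1.55-fold from 17.1 ± 2.44 to 26.5 ± 2.39 CPM (edgeR adjusted p = 0.031), but after the length and GC correction its log2 fold change was 0.32 (edgeR adjusted p = 0.17). For Rbm38, the paralogue of Rbm24, the log2 fold change was -0.20 (SE 0.12, edgeR adjusted p = 0.28). Of the 18 relatives listed, 10 were in the table and tested. Of these, 2 were lower and 2 higher (40% called, against 16.5% of all tested genes), with a median log2 fold change of -0.04. None of the 10 was called when control replicate 2 or control replicate 3 was left out. Those fits called 17 and 105 of all genes lower, and 21 and 132 higher.

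**Figure D3:**
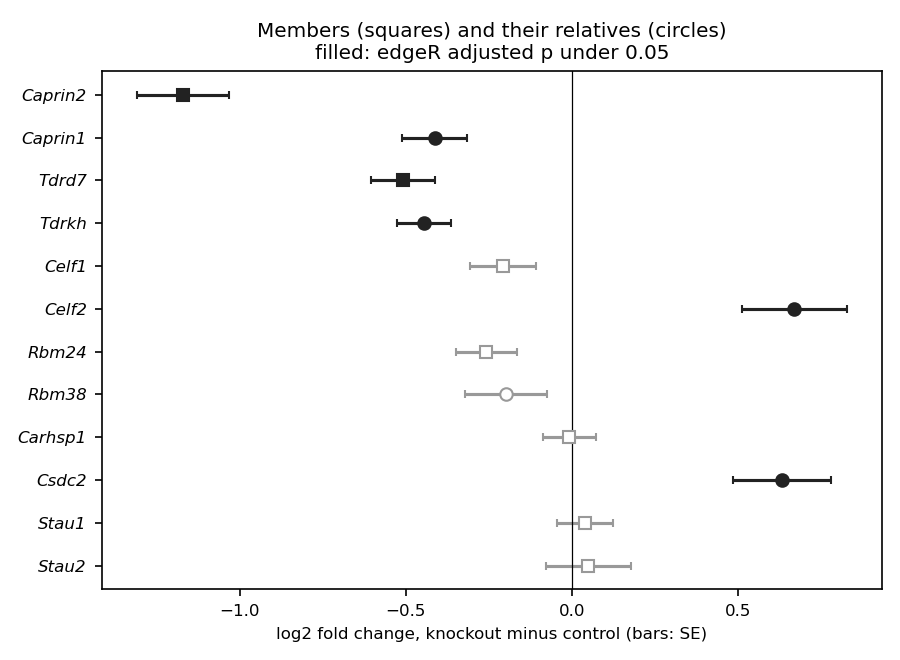
Log2 fold change (knockout minus control, x axis; bars are SE) of the 7 genes (squares) and 5 relatives (circles), filled where the edgeR adjusted p was under 0.05. Caprin2, Caprin1, Tdrd7 and Tdrkh lie below 0 and Celf2 and Csdc2 above it.

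Of 21 stress granule genes, all tested, 10 were lower (47.6%, against 8.51% of all tested genes), none was higher, and 19 had a log2 fold change below 0, with a median of -0.34. Ybx3, a cold shock domain protein like Carhsp1, fell 1.61-fold from 174.4 ± 5.92 to 108.0 ± 12.1 CPM (edgeR adjusted p = 0.0097). Pabpc1, the main cytoplasmic poly(A)-binding protein, fell 1.43-fold from 1569 ± 24.6 to 1099 ± 0.844 CPM. G3bp2, one of the nucleators, fell 1.38-fold from 264.6 ± 6.90 to 191.1 ± 24.0 CPM. The count of lower genes was 10 after the length and GC correction and 7 with library totals as the sole scaling. It was 0 when control replicate 2 was left out and 1 for control replicate 3, against 17 and 105 lower of all genes.

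Of 29 genes for transport granules and double-stranded RNA binding, 5 fell (17.2%, against 8.51% of all tested genes) and 0 rose, with a median log2 fold change of -0.25. Kif5c, a kinesin heavy chain, fell 1.56-fold from 243.5 ± 12.4 to 156.4 ± 20.6 CPM, and Syncrip, an RNA-binding protein of transport granules, 1.44-fold. Cpeb1 and Cpeb3, which control poly(A) tail length and translation, fell 1.37-fold and 1.53-fold. DESeq2 called 12 lower, against 1193 of all genes. With edgeR 0 were called lower when control replicate 2 was left out and 1 when control replicate 3 was. Of all genes, these fits called 17 and 105 lower.

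Of 35 P-body and decay genes tested from 37 listed, 3 fell and 2 rose (14.3% called, close to the 16.5% of all tested genes), with a median log2 fold change of -0.04. Tob1, which links the CCR4-NOT deadenylase to its targets, fell 1.78-fold from 323.4 ± 20.5 to 181.9 ± 35.6 CPM (edgeR adjusted p = 0.013). Zfp36l1, which brings deadenylases to AU-rich mRNA, rose 2.84-fold from 19.3 ± 7.17 to 54.9 ± 13.7 CPM (edgeR adjusted p = 0.016). Its highest control, replicate 3 at 27.6 CPM, and its highest knockout, replicate 1 at 64.6 CPM, also had the most mesenchyme marker RNA of their groups. The part of mesenchyme in this rise was not tested. Lsm4, a subunit of the decapping-linked Lsm ring, fell 1.49-fold, and Cnot7, a deadenylase subunit, fell 1.32-fold. After the length and GC correction Cnot7 was at -0.11 on the log2 scale (edgeR adjusted p = 0.38). When control replicate 2 was left out no gene of the list was called, and for control replicate 3 the counts were 1 lower and 1 higher. The same fits called 17 and 105 of all genes lower, and 21 and 132 higher.

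Of 13 tested microRNA silencing genes, 3 were called (23.1%, against 16.5% of all tested genes). Those that fell were 2, namely Tnrc6b, an Argonaute partner (1.42-fold, 1489 ± 164 to 1046 ± 77.4 CPM), and Lin28b, which blocks let-7 processing (1.36-fold). Mov10, an RNA helicase, rose 1.47-fold, and after the length and GC correction stood at 0.19 on the log2 scale (edgeR adjusted p = 0.35). Of 13 genes of nonsense- and Staufen-mediated decay, among them Upf1, the helicase that Stau1 recruits, only Upf3b was called (7.69%). It fell 1.45-fold (edgeR adjusted p = 0.039). The median log2 fold changes of the lists were 6.6e-05 and 0.00665. None of these genes was called when control replicate 2 or control replicate 3 was left out. Over all genes, 17 and 105 were then called lower, and 21 and 132 higher.

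Of 30 tested genes for splicing- and stability-regulating RNA-binding proteins, 5 rose and 4 fell (30.0% called, against 16.5% of all tested genes), with a median log2 fold change of 0.09. Mbnl1, which opposes Celf1 at many alternative exons, fell 1.48-fold from 68.6 ± 7.58 to 46.4 ± 1.09 CPM (edgeR adjusted p = 0.019). Rbpms2 rose 2.63-fold from 1.53 ± 0.0812 to 4.05 ± 0.145 CPM. Rbfox2, a splicing regulator, rose 1.74-fold, from a control mean of 65.2 CPM to knockout values of 142.3 and 84.9 CPM. Elavl3, a neuronal protein, rose 3.06-fold, from a control mean of 2.198 CPM to knockout values of 4.15 and 9.33 CPM. Rbfox2 was higher in the library with more mesenchyme and muscle marker RNA. Elavl3, itself one of the neuron markers, was higher in the one with more retina and neuron marker RNA. Their part was not tested. Leaving out control replicate 2 or 3 left 0 calls in this list. Calls over all genes then fell to 17 and 105 lower, and to 21 and 132 higher.

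**Figure D4:**
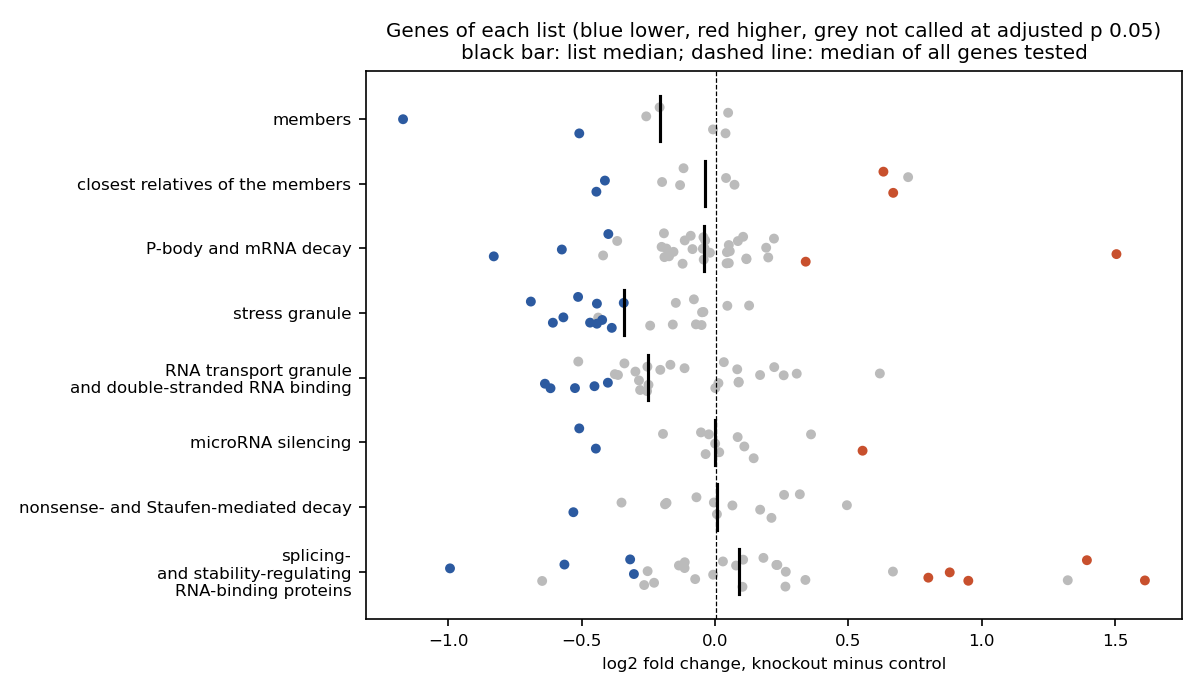
Log2 fold change (knockout minus control, x axis) of every tested gene of the 7 members and the 7 related lists, 1 point per gene, blue where called lower, red where called higher and grey where not called. Black bars are list medians, and the stress granule list has the lowest, at -0.34.

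Genes that published work links to 4 of the 7 members were also followed. Celf1 acts on Dnase2b, Cdkn1b, Cdkn1a, Pax6 and Prox1, in part through translation, Tdrd7 loss alters Crybb3, Epha2 and Hspb1, Rbm24 acts on Sox2, and the Caprin2 protein binds the Wnt coreceptor Lrp6. Of these 10, only Dnase2b, the nuclease of fibre cell nuclei, passed the test (10% called, against 16.5% of all tested genes). Its CPM was 41.7 ± 11.1 in the controls (SD, n = 3) and 5.23 ± 0.313 in the knockouts (SD, n = 2), or -2.99 on the log2 scale (SE 0.25, edgeR adjusted p = 0.0024), in libraries where Celf1 itself was at -0.21. The call for Dnase2b held in all 15 alternatives. Crybb3 (log2 fold change -0.29, SE 0.18), Epha2 (0.23, SE 0.10) and Hspb1 (0.69, SE 0.60) did not pass, Hspb1 being near the detection limit at 0.663 ± 0.183 CPM in the controls. On the same scale Sox2 was at 0.15 (SE 0.098), Cdkn1b at -0.21 (SE 0.095), Cdkn1a at 0.90 (SE 0.30), Prox1 at 0.09 (SE 0.098), Pax6 at 0.03 (SE 0.087) and Lrp6 at 0.15 (SE 0.093), and none passed. The median of the 10 genes was 0.12.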

How the data were processed

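RNA of embryonic day 14 lenses was sequenced in 5 libraries. The deposited values are raw counts for each gene symbol, in 1 table. Per the submitters' processing notes, the tools were HTSeq 0.6.1, TopHat2 2.0.13, Cufflinks 2.2.1, Trim Galore 0.3.7 and DESeq2 and the build mm10, with no role or order. Strand setting and annotation are not stated. The pools are called biological replicates, and p-values reflect the spread between them.

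Counts were tested in R 4.3.3 with edgeR 4.0.16 (filterByExpr with a minimum count of 10, which removed 335 symbols; TMM; glmQLFit and glmQLFTest; no covariate). P-values were adjusted over all 12035 genes tested (Benjamini-Hochberg, threshold 0.05). The SE is the log2 fold change divided by the root of F. Alternatives used limma 3.58.1, DESeq2 1.42.0, other scalings and filters, a replicate block, length and GC offsets, and each library left out. The script was tested on simulated data.

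The members and lists were chosen with earlier results of these data known. Besides the members and their paralogues, up to 4 called genes per list were named, by smallest adjusted p. Library pairs within a group differed beyond sampling noise (chi-square over its degrees of freedom 10.1 to 23.6). Symbols absent from the table were looked up among RefSeq synonyms. Some genes picked by the naming rule are not reported here.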

Additional observations from a re-analysis of the deposited data

How the results depend on the processing

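Both called members, Caprin2 and Tdrd7, were called lower under every change of scaling, filter, tool or covariate that was run, and DESeq2 added Rbm24 for a total of 3. The number of members called ran from 0 (without control replicate 2) to 2 when single libraries were left out, and the number of all genes called from 38 to 2717, against 1984. It was 1239 after the length and GC correction. The replicate numbers 1 and 2 occur in both groups, but the labels do not say that they pair libraries, and deviations of same-numbered libraries from their group means correlated at -0.07 and 0.04. With the replicate number as a block the members called were 2, and all genes called were 995 over all libraries and 1762 over the libraries numbered 1 and 2. Signs changed only for members near 0. Carhsp1 was at 0.076 when scaled by library totals alone and at 0.0020 with upper-quartile scaling. With single libraries left out, Carhsp1 ran from -0.029 to 0.014, Stau1 from -0.037 to 0.11 and Stau2 from -0.076 to 0.17. Of 510 values for 34 named genes, 395 kept direction and call, 105 lost the call, 2 gained it and 8 changed sign. The cause of these shifts was not tested. With the same block over all libraries, 4 stress granule genes were called lower, against 10 without it.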
